A study of Rattus norvegicus with 10 samples.

Results

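The proteins of the cytosolic ribosome were examined as 47 probe sets of 43 genes, out of 31042 probe sets measured and 14217 genes named by a single symbol. A probe set belonged here if its single gene symbol in the platform annotation was Rpl or Rps followed by a number and at most 1 letter, or Rplp0, Rplp1 or Rplp2. Small-subunit genes (Rps) gave 14 probe sets of 13 genes, large-subunit genes (Rpl) 32 of 29, and the stalk was represented by Rplp0. A further 33 probe sets carried such a symbol together with pseudogene or paralogue symbols and were kept apart. The tissue was the nucleus tractus solitarii, the brainstem nucleus in which baroreceptor afferents end, profiled on 5 arrays of the spontaneously hypertensive rat (SHR) and 5 of its normotensive control, the Wistar-Kyoto rat (WKY). All animals were males aged 10 to 13 weeks and no treatment is named, so the groups differ by strain. The design text treats every array as an independent biological replicate, while the sample descriptions name 5 animals for each sample, so an array may hold 1 animal or a pool, and p-values measure the spread between these arrays.

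The cytosolic ribosome has a small subunit that reads the messenger and a large subunit that joins the amino acids, and its proteins are needed in matched amounts. Their messengers are among the most abundant and shortest of a cell, and in mammals most begin with a C followed by a run of pyrimidines, the terminal oligopyrimidine (TOP) motif, through which the kinase complex mTORC1 sets their translation. Neurons rely on this pool for protein synthesis in soma, dendrites and axons.

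The region around the annotated start of transcription was searched for pyrimidine runs. RefSeq's table for assembly GRCr8 held a promoter for 36 of the 43 genes, as 250 bases before to 50 after the start. In the 40 bases centred on the start, a run of at least 8 pyrimidines (C or T, on the gene's strand) was found in 24 of the 36, 66.7%, against 15.5% of all 33465 promoters. The run could lie anywhere in these bases (that of Rpl39 spans bases 12 to 20 after the start), so this is not a count of TOP motifs. The 33465 promoters were not restricted to genes on the array or active in this tissue, so they are not a matched set. The 7 promoters below were chosen because the results turn on these genes. Probe sets of Rps3a, Rpl35a and Rps24 varied most closely with the other ribosomal probe sets, and that of Rpl39 ran against them. Rpl3, Rpl27a and Rpl41 had some of the largest strain differences. Each line gives 30 bases before and 20 after the annotated start, and capitals mark the longest pyrimidine run of the 40 bases.
Rps3a (chr2:173827023-173827072, minus strand): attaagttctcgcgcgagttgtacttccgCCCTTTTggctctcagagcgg
Rpl35a (chr11:81235002-81235051, minus strand): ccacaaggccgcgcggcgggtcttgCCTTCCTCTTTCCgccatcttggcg
Rps24 (chr16:96487-96536, plus strand): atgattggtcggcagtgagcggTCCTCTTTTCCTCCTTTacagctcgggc
Rpl27a (chr1:172974543-172974592, plus strand): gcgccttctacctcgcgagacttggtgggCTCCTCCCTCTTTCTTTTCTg
Rpl39 (chrX:121195877-121195926, minus strand): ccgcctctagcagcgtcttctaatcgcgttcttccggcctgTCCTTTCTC
Rpl3 (chr7:113507971-113508020, minus strand): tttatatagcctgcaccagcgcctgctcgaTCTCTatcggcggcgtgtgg
Rpl41 (chr7:1563478-1563527, minus strand): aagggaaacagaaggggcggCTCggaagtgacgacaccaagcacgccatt

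The run was 20 bases in Rpl27a and 17 in Rps24 but 5 in Rpl3 and 3 in Rpl41, and the annotated start may not be the start used in this tissue. Other short motifs, searched on both strands of all 300 bases, were also counted. CGGAAG, the core bound by ETS factors, was in 16 of 36 promoters (44.4%, against 16.6% of all), and GGGCGG, the core of the Sp1 motif, in 23 (63.9% against 33.1%). AANATGGC, bound by YY1, was in 6 (16.7% against 6.97%), and TATAAA in 5 (13.9% against 14.2%). As a description, the median log2 difference between strains was 0.062 over 21 tested genes with a run of 8 or more and 0.12 over 12 without.

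Most of these transcripts were measured far above the bulk of the array. Each probe set has 1 linear intensity, called signal here, for every array, as scaled by the authors. It entered the test when its signal reached the 40th percentile of the array on 5 or more of the 10 arrays. Of the 47 probe sets 41 were tested (39 genes), and 37 of these were in the top 10% of all probe sets by mean signal. The median percentile of the 41 was 99.4, so most were brighter than most of that top 10%. No comparison set was matched to them in signal. Signals of different probe sets are not levels of different genes, because probes differ in binding. The 3 genes with the highest signals were Rps29 (3273 to 4820), Rpl26 (3131 to 3899) and Rps23 (2806 to 3735). Rps29 is a zinc-binding protein of the small-subunit head, and Rps23 lies at the decoding centre.

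The 6 untested probe sets lay between percentiles 6.40 and 37.5 of mean signal. Rpl3l, the paralogue of Rpl3 found in striated muscle, had signals of 1.56 to 3.96 in SHR and 1.55 to 10.4 in WKY. The sole probe sets here of Rpl28 (3.13 to 24.8) and Rpl30 (5.80 to 25.9) lay at percentiles 18.0 and 22.6. That of Rps13 (13.6 to 29.7) and the second probe sets of Rpl14 and Rps24 lay closer to the filter, at percentiles 28.6, 32.7 and 37.5. Since Rpl28, Rpl30 and Rps13 are also named by probe sets with several symbols, these low values describe the probe sets and not the genes.

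As a group, ribosomal protein probe sets lay slightly higher in SHR on the scaling of the deposited table. The median log2 difference (SHR minus WKY, of log2(signal + 16)) was 0.078 over the 41 tested, against 0.016 over all 18846 tested, and 32 of the 41 differences (78.0%) were above 0, against 54.0% of all, but with quantile normalization the median was 0.0060 with 22 above 0, and with arrays scaled to a common median it was -0.064 with 12 above 0. That last scaling moved the median of all probe sets to -0.11, so the ribosomal median stayed 0.044 above it, compared with 0.061 above it on the deposited scaling and 0.0068 with quantile normalization. The quartiles of the 41 differences were 0.022 and 0.15. On the deposited scaling 2 probe sets, the Rpl3 _x_at probe set and Rps29, were higher past the threshold of a Benjamini-Hochberg adjusted p below 0.05 in limma (2 of 41, where 2.06% of all tested probe sets were higher and 4.26% differed in either direction), and 0 were lower (2.2% of all). Among the top 10% by signal, 1.71% of probe sets were higher and 3.12% lower. On the deposited scaling the median difference of that top 10% was -0.026, with 39.5% above 0. At an unadjusted p under 0.05 in limma, 12 of the 41 were higher and 0 lower, against 11.4% and 9.62% of all tested.

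**Figure D1:**
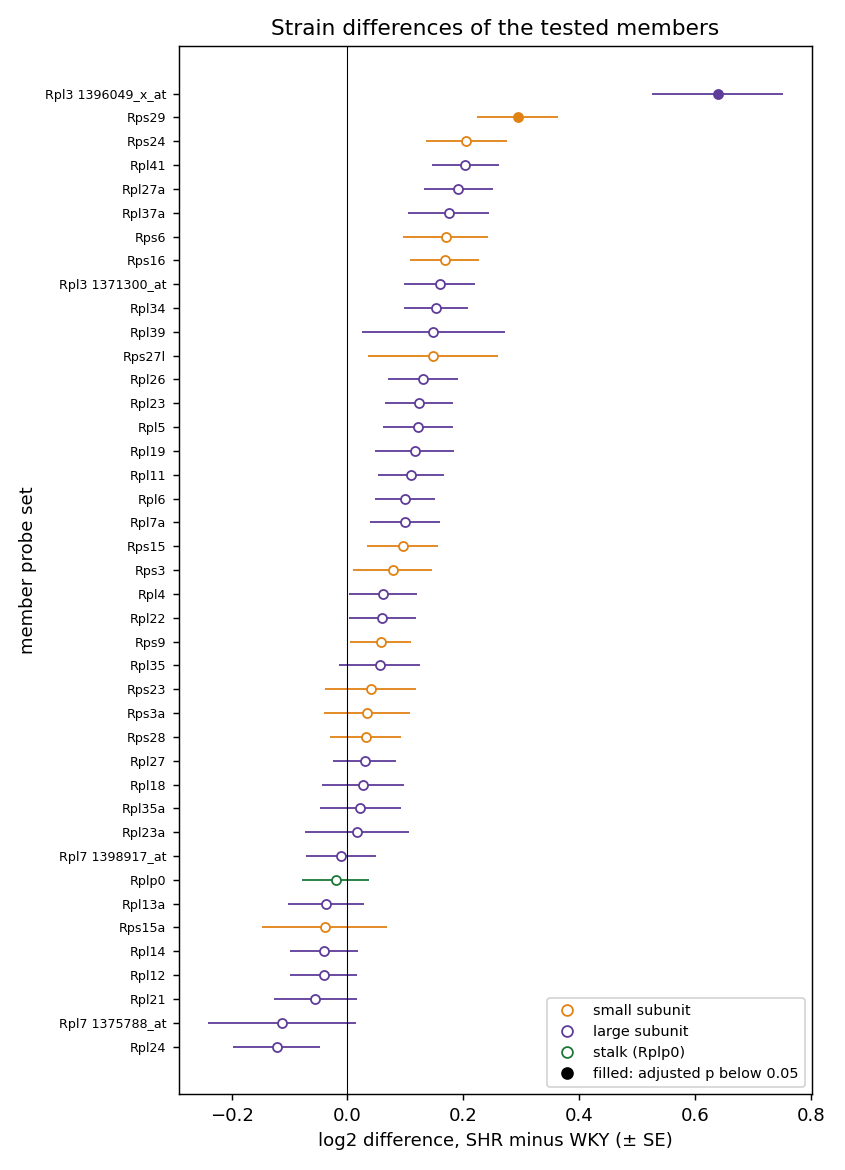
Log2 difference (SHR minus WKY) with its standard error for each of the 41 tested probe sets, coloured by subunit and filled where the adjusted p was below 0.05. Of the 41 differences 32 lie above 0, against 22 with quantile normalization and 12 with a common median, and the 2 filled points are the Rpl3 _x_at probe set and Rps29.

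The subunits were described apart. On the deposited scaling, small-subunit probe sets had a median difference of 0.087 with 11 of 12 above 0, and large-subunit probe sets 0.080 with 21 of 28 above 0. The stalk protein Rplp0, which anchors the factor-binding stalk of the large subunit, had signals of 1183, 1151, 1087, 1182 and 1288 in SHR 1 to 5 and 1185, 1126, 1157, 1229 and 1276 in WKY 1 to 5. Its groups overlapped fully, with a difference of -0.021 ± 0.058 (SE; limma adjusted p = 0.877).

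The largest difference was on a second probe set of Rpl3, a large-subunit protein that reaches toward the peptidyl transferase centre. This probe set, of the suffix class _x_at, had signals of 279, 243, 358, 352 and 317 in SHR 1 to 5 and of 159, 188, 251, 178 and 191 in WKY 1 to 5. SHR 2 lay just below WKY 3, and the other SHR arrays lay above every WKY array. The mean was 310 ± 49.0 in SHR and 193 ± 34.7 in WKY (SD, n = 5), a log2 difference of 0.64 ± 0.11 (SE; limma adjusted p = 0.0031). That suffix marks probes that can also bind other transcripts. The brighter Rpl3 probe set had 3018, 3124, 3231, 3460 and 3301 in SHR and 2664, 2949.9, 2873, 2754 and 3215 in WKY. WKY 5 lay inside the SHR range, and the difference of 0.16 ± 0.061 did not pass (limma adjusted p = 0.145). The sign of this smaller difference turned with quantile normalization (-0.015). The gap between both probe sets was 0.48 log2 units and was not tested.

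Rps29 was the small-subunit gene past the threshold. Its signals were 3731, 4139.5, 4819.9, 4663 and 4409 in SHR 1 to 5 and 3273, 3678, 3799, 3412 and 3528 in WKY 1 to 5. SHR 1 lay below WKY 3, and the other 4 SHR arrays lay above all WKY arrays. The log2 difference was 0.29 ± 0.070 (SE; 1.23-fold; limma adjusted p = 0.0233). Leaving out SHR 3, SHR 4, WKY 1, WKY 4 or WKY 5 each lost the call (limma adjusted p up to 0.0709), and with quantile normalization the difference was 0.0023 (limma adjusted p = 0.984).

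The next 3 differences did not pass. Rpl41, which encodes a very small basic peptide of the large subunit, had 2209, 2426, 2439.6, 2433 and 2177 in SHR and 1886, 1986, 2167, 2095 and 2004 in WKY. It was the 1 probe set of the 41 whose SHR values all lay above its WKY values (3.22% of all tested probe sets did), and 0 had them all below (2.91% of all). Its difference was 0.20 ± 0.058 (limma adjusted p = 0.0556). Rps24, a small-subunit protein needed to process the precursor of 18S rRNA, had 1753, 2005, 1821, 2261 and 2199 in SHR and 1701, 1769, 1805, 1636 and 1748 in WKY. SHR 2, SHR 4 and SHR 5 stood well above WKY, SHR 3 lay just above WKY 3 and SHR 1 lay inside the WKY range, with a difference of 0.21 ± 0.070 (limma adjusted p = 0.106). Rpl27a of the large subunit had 2780 to 3340 in SHR and 2517 to 2908 in WKY, a difference of 0.19 ± 0.060 (limma adjusted p = 0.0795).

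**Figure D2:**
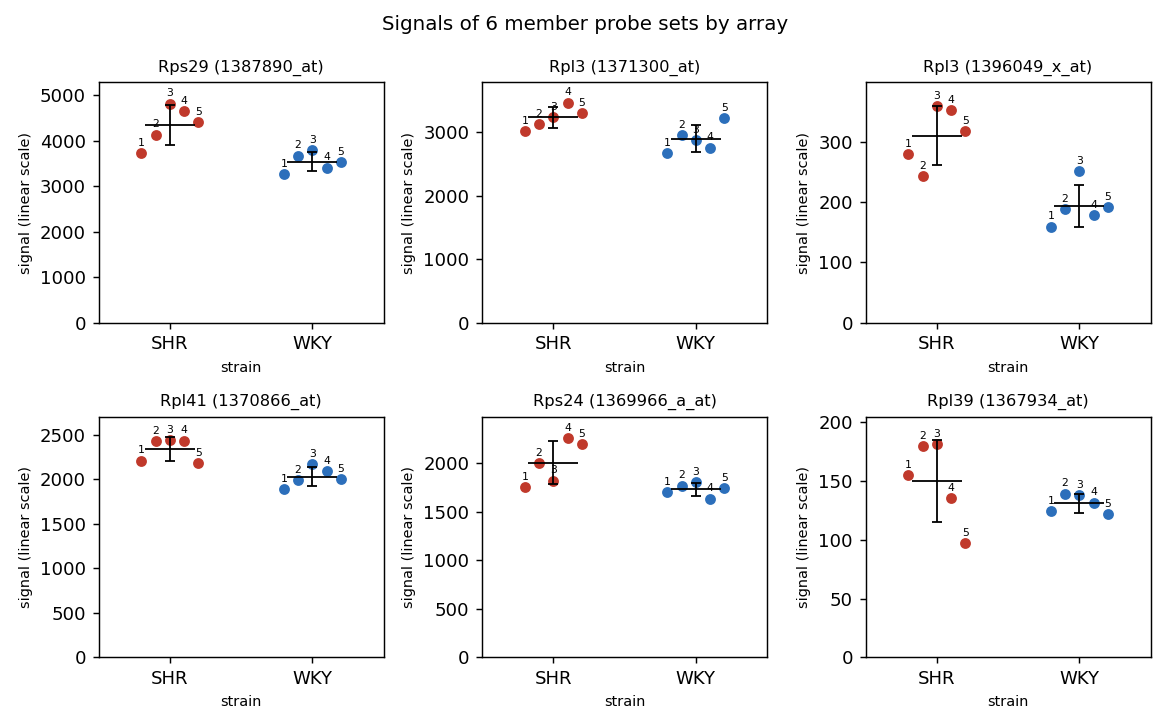
Signal on a linear scale of 6 ribosomal protein probe sets in SHR and WKY, with each point an array numbered by its replicate and the black marks giving mean ± SD. The Rpl41 groups do not overlap, the Rpl3 _x_at probe set and Rps29 overlap by 1 SHR array, and SHR 5 is the lowest Rpl39 value while the highest are SHR 2 and SHR 3.

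The most negative differences did not pass. Rpl24, which forms a bridge between the subunits, had 1073, 1243, 1008, 1247 and 1297 in SHR and 1127, 1248, 1319, 1373 and 1310.2 in WKY (-0.12 ± 0.075; limma adjusted p = 0.37). The dimmer probe set of Rpl7 had 82.4 to 117 in SHR and 74.5 to 136 in WKY (-0.11 ± 0.13), and its brighter one differed by -0.012 ± 0.060. Rpl21 had 1156 to 1533 in SHR and 1348 to 1464 in WKY (-0.055 ± 0.072), so the SHR arrays lay on both sides of WKY. The limma adjusted p was 0.37 or more for each.

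A further 4 members, of which all but Rps27l were chosen after their values were seen, did not pass. Rps6, the substrate of S6 kinase downstream of mTORC1, had 2837, 3317, 3385, 3416 and 3287 in SHR and 2594, 3009.6, 3267, 2589 and 2998 in WKY, a difference of 0.17 ± 0.073 (limma adjusted p = 0.192). Rpl5 and Rpl11, which with 5S rRNA bind the p53 regulator Mdm2, differed by 0.12 ± 0.061 and 0.11 ± 0.057 (limma adjusted p = 0.261 and 0.285). Rps27l, a p53-inducible paralogue of Rps27, had 78.3 to 109 in SHR and 60.7 to 94.2 in WKY (0.15 ± 0.11; limma adjusted p = 0.48).

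On the deposited scaling, ribosomal protein signals varied together from array to array. After each strain's mean was removed, the median correlation over the 820 pairs of tested probe sets was 0.44 across the 10 arrays, and 85.6% of pairs were above 0. The same median was 0.12 over the 3105 probe sets in the top 10% by signal and 0.0055 over every 10th tested probe set. All of these share arrays and scaling, and the values are descriptions. It was 0.43 within the small subunit and 0.44 within the large subunit. Rps3a followed the mean of the other members most closely (r = 0.93), then Rpl35a (0.90) and Rps24 (0.89), and 31 of 41 exceeded 0.5. Rpl41 (0.19), Rps27l (0.17) and Rpl22 (0.14) followed it weakly.

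The probe set of Rpl39, whose protein lines the exit tunnel of the large subunit, ran against the others (r = -0.62). Its signals were 155, 179.6, 182, 135 and 97.2 in SHR 1 to 5 and 124, 139, 138, 132 and 121 in WKY 1 to 5. SHR 4 and SHR 5 were the lowest SHR arrays for Rpl39, whereas they were the highest for most other members. Its strain difference was 0.15 ± 0.12 (limma adjusted p = 0.522). This probe set was dim beside most members, at percentile 77.7 of mean signal. The dimmer Rpl7 probe set (percentile 72.0, r = 0.27) and Rps27l (percentile 66.3, r = 0.17) also followed the others weakly. The Rpl3 _x_at probe set (percentile 87.9) had r = 0.53, and the bright Rpl41 and Rpl22 followed weakly too. The part of signal level in this was not tested, and the r of -0.62 describes the probe set and not the gene.

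On the deposited scaling, SHR 4 and SHR 5 held the highest value of 28 of the 41 probe sets (68.3%). The share was 19.1% of all tested probe sets and 26.5% of the top 10%. The mean departure of the 41 from their own 10-array means was 0.15 on SHR 4 and 0.11 on SHR 5, and between -0.027 and 0.0068 on SHR 1, SHR 2 and SHR 3. In WKY it ran from -0.10 on WKY 1 to 0.028 on WKY 3. The mean over strains was 0.044 ± 0.082 in SHR and -0.044 ± 0.049 in WKY (SD, n = 5). The share of all signal that fell on the 47 probe sets was 1.89% ± 0.096 in SHR and 1.79% ± 0.055 in WKY. The within-strain SD of the median log2 signal of the 41 was 0.086 with all arrays. It was 0.042 without SHR 4 and SHR 5, 0.087 without SHR 2 and SHR 3, and 0.062 with quantile normalization. Without SHR 4 and SHR 5, an alternative chosen after seeing the data, the median difference was 0.043 with 23 of 41 above 0, against a median of 0.023 over all probe sets. Rpl39 then passed (0.36, limma adjusted p = 0.0295), and Rps29 did not. The arrays left out were the lowest SHR arrays for Rpl39, so its pass depends on that choice. Without SHR 2 and SHR 3 the median difference was 0.13 with 38 above 0, against a median of 0.011 over all. Rps29 did not pass then (0.27; limma adjusted p = 0.093), and Rpl37a of the large subunit did. Over all arrays Rpl37a had 2698, 2391, 2562, 3068 and 3135 in SHR 1 to 5 and 2416, 2453, 2503, 2383 and 2448 in WKY 1 to 5. SHR 2 lay inside the WKY range and the other SHR arrays above it, with a difference of 0.17 ± 0.070 (limma adjusted p = 0.161).

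**Figure D3:**
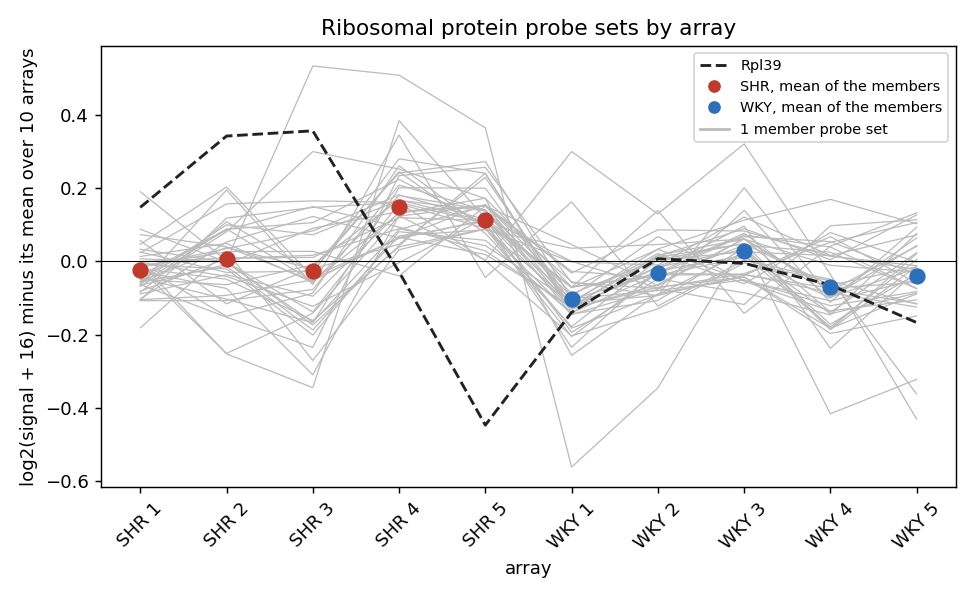
Each grey line is 1 of the 41 tested probe sets, drawn as log2(signal + 16) minus its mean over the 10 arrays, with the lines only linking values of the same probe set, and the coloured points give the mean of all members on each array. The means are highest on SHR 4 (0.15) and SHR 5 (0.11) and lowest on WKY 1 (-0.10), on the scaling of the deposited table, and the dashed line of Rpl39 is highest on SHR 3, where the mean is -0.027, and lowest on SHR 5.

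The array median is the measure against which these bright genes were set, because the authors' scaling fixes the trimmed mean at 100 and leaves the median free to vary. The median signal was 44.2 to 49.8 in SHR and 39.6 to 45.7 in WKY. In the top 10% of probe sets the mean departure correlated with the array median (log2) at r = -0.92 (Spearman -0.84) over the 10 arrays, -0.97 within SHR and -0.96 within WKY. For the ribosomal protein probe sets r was 0.28 (Spearman 0.43) over all arrays, -0.65 within SHR and 0.33 within WKY. With each strain's mean removed, r over the 10 arrays was -0.20 (Spearman -0.13) for the ribosomal probe sets. For the top 10% it was then -0.95 (Spearman -0.83). These are descriptions of 10 and 5 arrays that share the scaling.

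**Figure D4:**
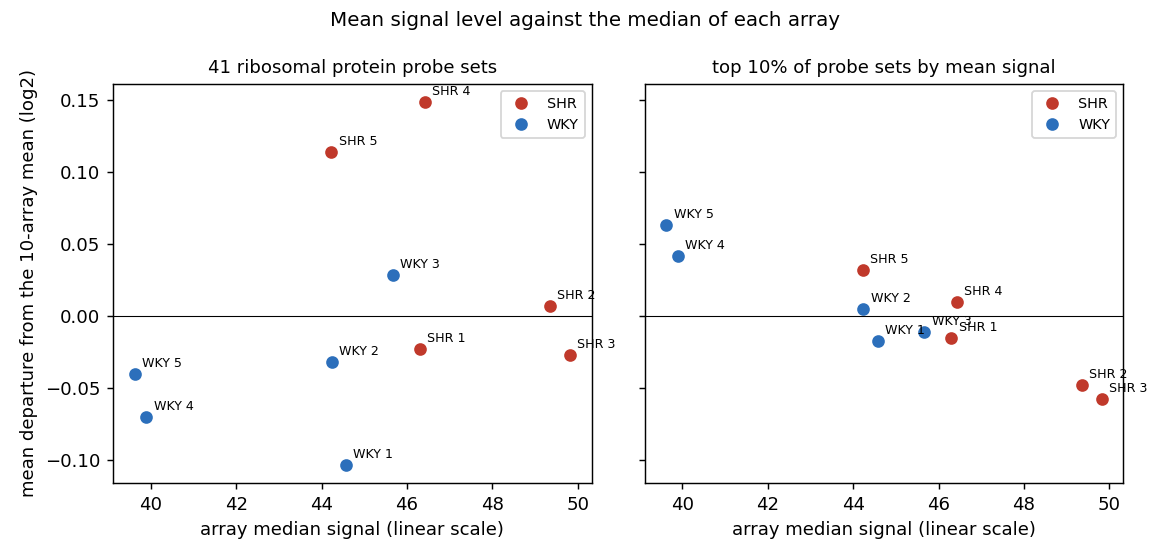
Mean departure (log2) of the 41 tested ribosomal protein probe sets, left, and of the top 10% of probe sets by mean signal, right, against the median signal of each array on a linear scale, with each point an array. The top 10% fall along the axis (r = -0.92). The ribosomal probe sets scatter (r = 0.28, or -0.20 with strain means removed), with SHR 4 and SHR 5 highest.

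The slope of each probe set on the array median was tested in a limma model with strain over all 18846 probe sets. For the ribosomal proteins 27 of 41 slopes were below 0 (45.3% of all tested; 75.9% of the top 10%), with a median of -0.24 log2 units per log2 unit of array median, against 0.17 over all and -0.57 in the top 10%. None of the 41 passed an adjusted p of 0.05 in either direction in limma (0% of all tested were called falling and 0.0159% rising); at an unadjusted p under 0.05, 3 slopes were below 0 and 1 above (8.21% and 11.5% of all). Rpl23a, a protein at the tunnel exit that binds the signal recognition particle, had the steepest falling slope (-2.31 ± 0.57 SE; limma adjusted p = 0.0664). Its signals were 1236, 1161, 1095, 1522 and 1546 in SHR and 1239.9, 1227, 1189, 1383 and 1399 in WKY, so the low-median arrays WKY 4 and WKY 5 were the highest of WKY. Rps15a (-2.23 ± 0.82) and Rplp0 (-1.11 ± 0.42) followed (limma adjusted p = 0.159 and 0.163). The rising slopes were led by Rpl39 (2.51 ± 0.93; limma adjusted p = 0.16), the dimmer Rpl7 probe set (1.72 ± 1.09) and Rps27l (1.26 ± 0.96). These probe sets lay at percentiles 77.7, 72.0 and 66.3 of mean signal, outside the top 10% that held 37 of the 41.

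With the array median in the model, the strain difference was above 0 for 36 of the 41 probe sets (49.2% of all tested), with a median of 0.11 against -0.0030 over all, and 0 passed in limma (1.11% of all did; 7 of the 41 had an unadjusted p under 0.05, against 10.6% of all). The Rpl3 _x_at probe set then differed by 0.59 ± 0.16 (limma adjusted p = 0.109) and Rps29 by 0.24 ± 0.094 (adjusted p = 0.348). The difference of Rps15a moved from -0.040 to 0.20 ± 0.13 and that of Rpl39 from 0.15 to -0.12 ± 0.14. Strain and array median overlap, so their parts cannot be fully told apart.

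Probe sets kept apart by the symbol rule were read in the same fit. All 33 probe sets that name a ribosomal protein beside other symbols were tested. In SHR 1 was higher and 0 lower (2.06% and 2.2% of all tested). The 1 called names Rpl38 beside pseudogene symbols (0.29 ± 0.056 SE; limma adjusted p = 0.0055). Of the 33 differences 21 were above 0 (54.0% of all tested were), with a median of 0.026 against 0.016 over all. Of the 33 slopes on the array median 28 were below 0, against 45.3% of all tested and 75.9% of the top 10%. Rpsa, a small-subunit protein whose symbol falls outside the rule, differed by 0.18 ± 0.052 on its brightest probe set (limma adjusted p = 0.0616), where all SHR values lay above WKY, and by -0.061 and -0.055 on 2 others. Rack1, a scaffold on the small subunit, differed by 0.024 ± 0.053.

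Related machinery was read from lists, with no test between lists, and each count stands beside the 2.06% of all tested probe sets that were higher and the 2.2% that were lower. Of 19 tested probe sets of other genes with TOP messengers, such as elongation factors, 0 passed in limma and 11 were above 0 (median 0.015). Of 53 for ribosome assembly, 1 was lower, the nucleolar chaperone Nolc1 (266 ± 24.1 in SHR, 330 ± 22.0 in WKY; log2 difference -0.29 ± 0.072; limma adjusted p = 0.0259), and the median was -0.019. A second tested Nolc1 probe set differed by 0.084 ± 0.095. Of 28 for mTORC1 and S6 kinase, 2 were lower. These were Eif4ebp2, a repressor of cap-dependent initiation (201 ± 19.5 and 257 ± 19.2; -0.33 ± 0.076; limma adjusted p = 0.0171), and Pdcd4, an inhibitor of the helicase eIF4A (386 ± 25.3 and 459.7 ± 31.4; -0.24 ± 0.065; adjusted p = 0.0414). Pdcd4 was called on 1 of its 5 tested probe sets, and the others ranged from -0.29 to 0.27. All 3 calls ended with the array median in the model. Of 7 p53-response probe sets 0 passed (median 0.0020).

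Other gene families of translation and metabolism were read against the same shares, 2.06% higher and 2.2% lower. Of 89 tested probe sets of mitochondrial ribosomal proteins 1 was lower, Mrpl4 (304 ± 18.0 in SHR, 385 ± 18.1 in WKY; log2 difference -0.32 ± 0.061; limma adjusted p = 0.00521), and 34 were above 0 with a median of -0.024. Of 66 for initiation factors 2 were lower, Eif4ebp2 (above) and Eif3c, a subunit of initiation factor eIF3 (335 ± 19.2 in SHR, 664 ± 37.7 in WKY; -0.96 ± 0.061; limma adjusted p = 3.56e-08), with 25 above 0 and a median of -0.042. Of 82 for the respiratory chain and ATP synthase 1 was lower, the complex I subunit Ndufv3 (404 ± 19.0 and 497 ± 33.5; -0.29 ± 0.062; limma adjusted p = 0.0128), with 50 above 0 and a median of 0.028. These medians are on the deposited scaling.

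Other features of the arrays are given beside these values. The ratio of 3' to 5' control signals, a measure of RNA integrity and amplification, was 1.195 ± 0.088 in SHR and 1.12 ± 0.050 in WKY for Gapdh, highest on SHR 3 (1.34), and 3.13 ± 0.60 and 3.07 ± 0.32 for beta-actin (SD, n = 5). On SHR 4 and SHR 5 the Gapdh ratio was 1.17 and 1.14. Markers of noradrenergic neurons of this nucleus were present, with 8 of 8 probe sets tested and summed signals of 1798 to 1983 in SHR and 1950.4 to 2672 in WKY. Of the 8, Prlh was lower in SHR (-0.42 ± 0.11; limma adjusted p = 0.0379) and the others did not pass, with 3 of 8 differences above 0 and a median of -0.075. The counts that follow stand beside 2.06% of all tested probe sets higher and 2.2% lower. Among other cell types, 5 of 9 microglia probe sets were lower in SHR, with a summed signal of 2321 to 2413 in SHR and 2741 to 3009 in WKY. For neurons 1 of 11 tested was higher, with sums of 12963 to 14209 in SHR and 11624 to 13485 in WKY. For choroid plexus 2 of 4 tested were higher (863 to 1019.9 and 662 to 919), and 2 of 10 for oligodendrocytes were lower (8085 to 10147 and 7575 to 9941). None passed for astrocytes (9635 to 11155 and 9506 to 10695), endothelium (941 to 1001 and 867 to 969), blood (393 to 571 and 447 to 537) or meninges (338 to 483 and 363 to 602). The part of any of these in the ribosomal values was not tested, and in a tissue sample fewer cells of a type and less RNA per cell cannot be told apart.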

How the data were processed

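Total RNA was amplified and hybridised to 1-colour Affymetrix Rat 230 2.0 arrays. The deposited table holds a linear intensity for every probe set on each array, which the authors made, per the submitters' processing notes, in the scanner software GCOS 1.2. Settings for background and probe summary: not given in the sources used here. From the values, the authors scaled every array to a trimmed mean of 100 (2% off each end). No pair of arrays shared more than 2 identical signals.

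Arrays were grouped by strain from their titles, where the first of each strain is unnumbered and is called 1. The 57 control probe sets were left out. Log2(signal + 16) of the 18846 probe sets that passed the filter was fitted with strain as the single term, and then with the median log2 signal of each array added, in limma 3.58.1 (R 4.3.3; lmFit, eBayes with trend), with Benjamini-Hochberg adjustment over all 18846. Differences on this scale understate changes of low signals. The number of arrays limits the precision. Symbols of comparison lists were updated through Entrez identifiers to RefSeq's GRCr8 table (20758 of 20826 single-symbol probe sets matched); 436 had several symbols.

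The members and lists were chosen with earlier results of these data known. Probe sets named are those past the threshold, the 3 largest other differences in each direction, the 3 genes of highest and lowest signal, Rplp0, the 3 steepest slopes in each direction, genes whose probe sets differ, the paralogues Rpl3l and Rps27l, and up to 3 called members per list; Rps6, Rpl5, Rpl11, Rps13, Rpsa, Rack1, Rpl22, Rpl37a, Rps3a and Rpl35a were added once values were known. In simulated data used to check the model, 97.0% of 2-fold, 70.1% of 1.5-fold and 12.1% of 1.25-fold strain changes were called. Changes were planted in probe sets drawn at random from all tested, with independent noise. The median within-strain SD (log2) was 0.16 over all tested and 0.092 over the members, so these shares are not those of the members. Of slopes of 4 on the array median 36% were called, so a probe set not called may still differ or have a slope. Alternatives were quantile, 75th percentile and median scaling, offsets of 1 and 64, other filters and variance models, array weights, the replicate block, other choices of probe sets, and arrays left out.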

Additional observations from a re-analysis of the deposited data

Results flagged for a closer look

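Of 100 sets of 5 arrays examined (each of the 47 probe sets and 3 array measures in each strain), 3 had an array that stood apart from its strain by more than Dixon's 95% limit for 5 values, and chance gives about 1 such set in 20. The probe set of Rpl12, a protein at the base of the stalk, stood at 1442 on WKY 3 against 1303 to 1339.6 on the other WKY arrays. Rpl18 stood at 1363 on WKY 3 against 1105 to 1167.5. Rps6 stood at 2837 on SHR 1 against 3287 to 3416 on the other SHR arrays.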

How the results depend on the processing

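The count of 2 probe sets higher in SHR became 1 with quantile normalization, with a common median, with no filter, without the intensity trend, without WKY 4 and WKY 5, without _x_at probe sets and with 1 probe set per gene, and 0 with the array median as covariate. It ranged from 1 to 4 with 1 array left out: Rps24 and Rpl27a joined without SHR 1, Rpl41 joined without SHR 5 or without WKY 3, and Rps29 dropped out without SHR 3, SHR 4, WKY 1, WKY 4 or WKY 5. No probe set was lower, and no slope passed, in any alternative run. The median difference of 0.078 became -0.064 with a common median, where all calls split 205 higher to 1101 lower (388 to 415 on the deposited scaling; 272 to 407 with quantile normalization), and ranged from 0.060 to 0.098 with 1 array left out. The Rpl3 _x_at probe set lost its call in 1 alternative, the covariate, with log2 differences of 0.51 to 0.73 throughout. Rps29 lost it in 13 of 25, among them the common median (0.15, limma adjusted p = 0.276).

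Signs turned for small differences. With quantile normalization Rpl26 was -0.070, Rps23 -0.13, Rpl23a -0.0051 and the brighter Rpl3 probe set -0.015. With a common median Rpl26 was -0.013, Rps23 -0.10 and Rpl23a -0.13. With array weights Rps15a was 0.00067. With the covariate Rpl21 was 0.031, Rplp0 0.097, Rps15a 0.20, Rpl39 -0.12 and the brighter Rpl7 probe set 0.077. Without SHR 2 and SHR 3 these 5 were 0.057, 0.027, 0.15, -0.036 and 0.032. Without WKY 4 and WKY 5 Rplp0 was 0.025, Rps15a 0.0051 and the brighter Rpl7 probe set 0.014. Without SHR 4 and SHR 5, chosen after seeing the data, Rps23 was -0.062 and Rpl23a -0.14. With 1 array left out Rpl21 ranged from -0.10 to 0.00066, Rpl23a from -0.046 to 0.077, the brighter Rpl7 probe set from -0.052 to 0.013, Rplp0 from -0.053 to 0.0076, Rps15a from -0.14 to 0.042 and Rps23 from -0.020 to 0.083. The cause was not tested.

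The labels do not say that replicate numbers pair the arrays, so the numbers were not taken as pairs. Of 5 same-numbered correlations 2 were under 0.1 (0.049 and 0.038). The other 3 were 0.14, 0.13 and 0.28, and 3 of 5 SHR arrays correlated best with their own number, a hint from the data that leaves the pairing unsettled. With the replicate block 3 probe sets were higher (Rpl41, Rps29 and Rpl3), and 1214 of all tested were called in place of 803.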
